A study of Homo sapiens with 12 samples.

Results

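What stayed different from control cells after full-length NPM1c was put back was measured by comparing 3 dTAG FL-NPM1c libraries with 3 NTC DMSO libraries, 6 of the 12 libraries of the study, which has 4 groups of 3. The cells are OCI-AML3, a human acute myeloid leukaemia line. In this degron derivative the endogenous NPM1c protein carries a tag that the small molecule dTAG-13 directs to degradation, and all 12 samples are labelled with that genotype. Per the labels, the FL-NPM1c cells (genotype NPM1c-degron with FL-NPM1c-mCherry) received lentivirus carrying full-length NPM1c, were given 500 nM dTAG-13 at 48 hours after transduction, and were sorted for mCherry 24 hours later. The NTC DMSO cells (genotype NPM1c-degron) have titles that name the solvent DMSO but a treatment label that reads dTAG, and no construct is named for them. The meaning of NTC is not given. Any difference in dTAG-13 treatment, with the degradation it directs, therefore cannot be told apart from the add-back in this comparison. The same holds for the solvent, the virus with its construct and any difference in the mCherry sort. Cells with mCherry alone (genotype NPM1c-degron with mCherry) and cells with a construct called C-body null (NPM1c-degron with Cbodynull-mCherry) had the same virus and dTAG-13 schedule, and give the test of what the full-length construct changed. Every group comes from 1 parental line per the protocol, although the cell line labels carry running numbers, and separate cultures are not mentioned for the libraries. The p-values here thus cover only the spread between these libraries, which may be technical.

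Nucleophosmin, encoded by NPM1, is an abundant nucleolar protein that shuttles between nucleolus and cytoplasm. The leukaemia mutant NPM1c gains a nuclear export signal, accumulates in the cytoplasm, and also occupies chromatin, where it is linked to high expression of HOX cluster genes and their cofactor MEIS1. Loss of that programme is known to let blasts mature along the monocyte line and leave the cell cycle.

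The 6 libraries held 37.7 M to 59.9 M gene counts, with FL-NPM1c replicate 3 the deepest. Mitochondrial transcripts took 6.83% to 7.63% of their counts. NTC DMSO replicate 3 stood apart from replicates 1 and 2, with a chi-square per degree of freedom of 17.4 and 16.6 against 3.80 between replicates 1 and 2. The mCherry libraries, used for comparison below, were uneven, at 10.6 to 33.6 between pairs. Their replicate 3 had 30.5 M counts and 9.63% mitochondrial transcripts. Among the 500 most variable genes, principal component 1 (74.9% of the variance) placed the NTC DMSO libraries at 37.4 to 38.4 and the FL-NPM1c libraries at -11.3 to -5.87, near the mCherry libraries (-13.4 to -11.9). Component 2 (11.5%) placed the FL-NPM1c libraries at 13.7 to 15.4 and the other 9 libraries below 0. Some markers of T cells (CD3D, CD3E, CD3G and CD2), red cells (HBB), epithelium (EPCAM, CDH1) and fibroblasts (DCN, COL3A1) had 0 counts in all 6 libraries. Other members of the same lists were detected. KRT8 had 10 counts in NTC DMSO and 18 in FL-NPM1c, KRT18 7 and 5, and HBA1 2 and 5. FN1 and COL1A2 were expressed, as given below. The T and NK cell list summed to 10.3 to 18.1 CPM in NTC DMSO and 12.9 to 15.1 in FL-NPM1c. The T cell receptor gene TRAC had 127, 2 and 2 counts in NTC DMSO and 0, 2 and 5 in FL-NPM1c, and TRBC1 had 65, 6 and 0 against 0, 4 and 5. These receptor transcripts came almost entirely from NTC DMSO replicate 1. The stem cell gene CD34 had 13 and 15 counts in all, and KIT had 0. Myeloid identity was clear from LYZ (lysozyme), at 318 to 368 CPM (counts scaled to a common effective library total) in NTC DMSO and 2478 to 2542 in FL-NPM1c.

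Of 24064 genes tested, 3507 (14.6%) were higher in FL-NPM1c cells than in NTC DMSO cells and 3205 (13.3%) were lower, at an adjusted p under 0.05. That is 6712 genes or 27.9%. The large changes were mostly increases, since 1133 genes (4.71%) were at least 2-fold higher and 149 (0.619%) at least 2-fold lower. Values of the 3 and 3 libraries did not overlap for 43.5% of genes. The number called fell to 4190 without NTC DMSO replicate 1, 4302 without NTC DMSO replicate 2 and 4457 without FL-NPM1c replicate 2. In the same fit, mCherry cells differed from the same NTC DMSO libraries at 22.6% of genes, and FL-NPM1c cells differed from mCherry cells at 15.5% and from C-body null cells at 9.68% (4.82% higher and 4.86% lower).

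**Figure D1:**
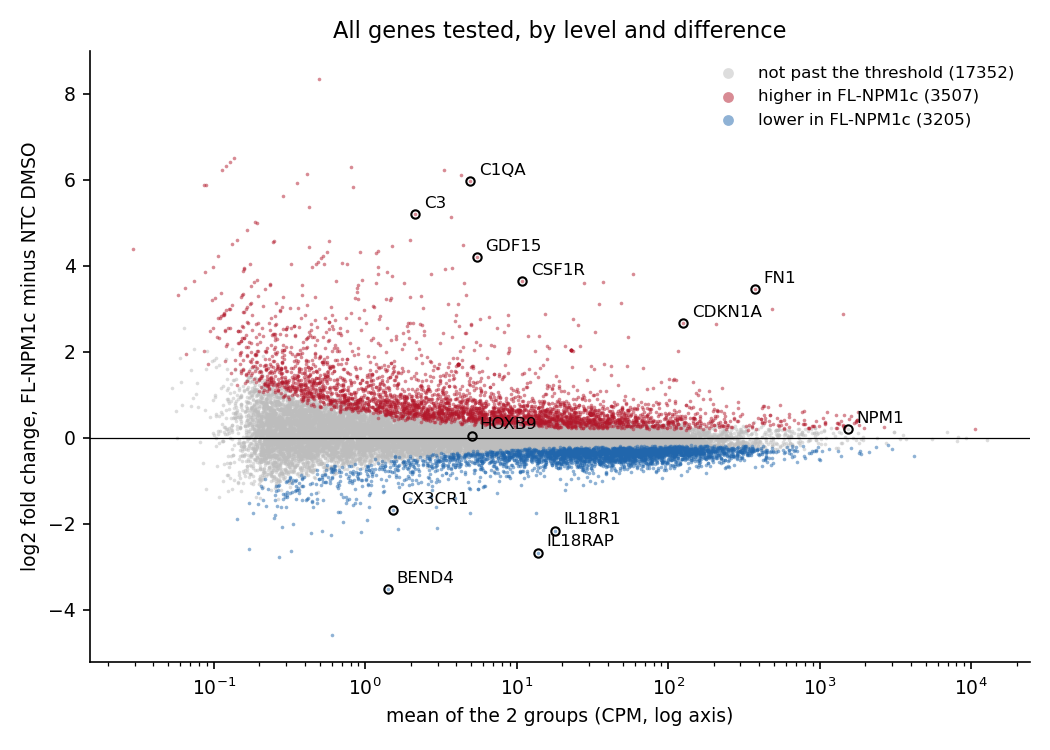
Each point is 1 of the 24064 genes tested, with the mean level of the 2 groups in CPM on a log axis and the log2 fold change of FL-NPM1c minus NTC DMSO. Red points (3507) were higher and blue points (3205) lower at an adjusted p under 0.05. Points far from 0 lie mostly above it, and HOXB9 lies at 0.

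NPM1 itself (chromosome 5, 171387116 to 171411137, plus strand, GRCh38) was measured at 1515, 1477 and 1296 CPM in NTC DMSO and at 1662, 1608 and 1684 in FL-NPM1c. The 3 FL-NPM1c libraries were all above the 3 controls, but the difference of 0.21 ± 0.09 (log2, SE) did not pass the test (adjusted p = 0.090), although it did when scaled by library totals only (0.24, adjusted p = 0.034). It was 0.40 ± 0.09 above mCherry cells (adjusted p = 0.0073), but with FL-NPM1c replicate 1 left out it did not pass (0.36, adjusted p = 0.064). C-body null cells had 1897 to 1937 CPM, from which FL-NPM1c differed by -0.22 (adjusted p = 0.14). Degradation acts on the protein, so these values do not measure it, and gene counts do not separate endogenous from construct transcripts.

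Genes of monocytes and macrophages were higher. Of 35 tested monocyte and macrophage genes, 28 were higher and 3 lower, with a median log2 fold change of 1.30, against 14.6% higher, 13.3% lower and a median of 0.02 over all genes. The receptor for the growth factor CSF1, CSF1R (chromosome 5, 150053291 to 150113372), was at 1.51, 1.5 and 1.85 CPM in NTC DMSO and at 21.6, 20.03 and 18.9 in FL-NPM1c. No control library came near the FL-NPM1c range, and the difference was 3.64 ± 0.15 (adjusted p = 6.7e-11). CD14, the lipopolysaccharide co-receptor, was at 0.675 to 1.04 CPM against 5.58 to 9.04 (3.12 ± 0.24). The haemoglobin scavenger receptor CD163 was higher by 2.65 ± 0.15 and LYZ by 2.87 ± 0.08. In bulk libraries more cells of a type and more RNA per cell cannot be told apart. These genes were also high in mCherry cells, where CSF1R was at 18.6 to 26.1 CPM and LYZ at 2558 to 2934. FL-NPM1c minus mCherry was -0.16 ± 0.12 for CSF1R, which did not pass the test (adjusted p = 0.35). Against C-body null cells CSF1R was lower by 0.48 ± 0.12 (adjusted p = 0.012), a call that depended on FL-NPM1c replicates 2 and 3 (adjusted p = 0.054 and 0.057 without each).

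The same list also held genes that the full-length construct set apart from mCherry cells. Of its 35 members, 18 were lower in FL-NPM1c than in mCherry cells and 2 higher, against 7.95% and 7.58% of all genes. Of the same 35, 21 were lower and 0 higher than in C-body null cells. ITGAM, which encodes the integrin chain CD11b and was singled out after its values were seen, was at 3.55, 3.80 and 4.47 CPM in NTC DMSO and at 3.20, 4.64 and 3.59 in FL-NPM1c. These ranges overlap, and the difference was -0.05 ± 0.15 (95% interval -0.36 to 0.26, adjusted p = 0.83). In mCherry cells ITGAM was at 13.7, 17.8 and 14.8 CPM, and FL-NPM1c minus mCherry was -2.02 ± 0.14 (adjusted p = 2.3e-07). It was at 13.8 to 14.2 CPM in C-body null cells, 1.88 ± 0.14 above FL-NPM1c (adjusted p = 1.6e-07). S100A8, a calcium-binding alarmin, lay between, at 4.70 to 6.75 CPM in NTC DMSO, 51.1 to 92.5 in FL-NPM1c and 136 to 182 in mCherry cells. It was 3.62 ± 0.20 above the first and 1.27 ± 0.17 below the last on the log2 scale (adjusted p = 2.2e-09 and 0.00014). The 3 lower members were the fractalkine receptor CX3CR1 and the Fc receptors FCGR1A and FCGR2A. FCGR1A was at 31.6, 31.1 and 28.96 CPM in NTC DMSO, 16.8, 17.3 and 16.9 in FL-NPM1c and 40.9 to 41.7 in mCherry cells. It was therefore lower in FL-NPM1c than in both other groups, by 0.85 ± 0.08 from NTC DMSO (adjusted p = 7.4e-07) and by 1.28 ± 0.08 from mCherry (adjusted p = 8e-08). FCGR2A was lower than in NTC DMSO by 0.40 ± 0.08 (adjusted p = 0.0013). The Fc receptor genes have close copies that can share their reads.

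Some genes of the neutrophil list showed a similar division. Of its 15 secondary granule and neutrophil genes only 5 were tested, of which 3 were higher and 0 lower. These 3 were the collagenase MMP8 (3.56 ± 0.38), the gelatinase MMP9 (2.71 ± 0.29) and the adhesion molecule CEACAM1 (2.28 ± 0.31). CEACAM1 was also lower in FL-NPM1c than in mCherry cells (-1.39 ± 0.21, adjusted p = 0.00043) and C-body null cells (-1.16 ± 0.21, adjusted p = 0.0018). Members below the filter included LCN2, OLFM4 and CEACAM8, at 0 counts in all 12 libraries, and CAMP, at 10 counts in NTC DMSO and 0 in FL-NPM1c. The other tested members were receptors. The granulocyte growth factor receptor gene CSF3R was at 25.4 to 33.5 CPM in NTC DMSO, 34.2 to 35.3 in FL-NPM1c and 64.9 to 80.7 in mCherry cells. The chemokine receptor gene CXCR2 was at 4.56 to 5.18, 5.36 to 5.59 and 9.63 to 10.2 CPM. Neither passed the test against NTC DMSO (0.29 ± 0.11, adjusted p = 0.058, and 0.20 ± 0.10, adjusted p = 0.16), although CSF3R passed without NTC DMSO replicate 3 (0.42, adjusted p = 0.0046), and both were lower than in mCherry cells (-1.05, adjusted p = 9.9e-06, and -0.84, adjusted p = 4.8e-05).

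Complement genes were higher or did not pass the test, at 13 higher and 0 lower of 17 tested (median 0.96). C1QB, which encodes a chain of the C1q recognition protein, had 0 counts in all 12 libraries. C1QA and C1QC, neighbouring genes on chromosome 1 for 2 other chains, were close to 0 in NTC DMSO, at 0.198, 0.05001 and 0.211 CPM for C1QA. In FL-NPM1c cells C1QA was at 13.7, 9.45 and 6.09 CPM, which is 5.96 ± 0.40 higher (adjusted p = 2.1e-08), and C1QC was 6.22 ± 0.42 higher (adjusted p = 2.8e-08). In mCherry cells C1QA was at 3.41 to 5.75 CPM, below each FL-NPM1c library. FL-NPM1c was 1.04 ± 0.24 above them (adjusted p = 0.0099), but without FL-NPM1c replicate 1 the difference was 0.69 and did not pass (adjusted p = 0.063). C-body null cells had C1QA at 7.45 to 9.29 CPM, inside the FL-NPM1c range, and FL-NPM1c minus C-body null was 0.25 ± 0.23 for C1QA (95% interval -0.25 to 0.74, adjusted p = 0.55) and 0.14 ± 0.23 for C1QC (adjusted p = 0.76). C3, the central complement component, was at 0.05001 to 0.158 CPM against 3.64 to 4.99 (5.21 ± 0.26), and C5AR1, the receptor for the C5a fragment, was 3.12 ± 0.26 higher. Of 13 leukocyte immunoglobulin-like receptor and Siglec genes, 8 were higher and 1 lower (median 0.75). LILRA5, at 0.124 to 0.200 CPM against 2.99 to 4.40, was 4.59 ± 0.27 higher, while LILRA2, the lower member, went from 69.7 to 82.9 CPM in NTC DMSO to 46.0 to 51.7 (-0.63 ± 0.10, adjusted p = 0.00027). Reads of these receptor genes can be shared between close copies such as LILRA6 and LILRB3. Of 30 lysosomal genes, 15 were higher and 2 lower (median 0.27). The proton pump subunit gene ATP6V0D2 was 4.47 ± 0.35 higher, GRN (progranulin) 1.16 ± 0.14 and the glycogen-degrading enzyme gene GAA 1.13 ± 0.15. The lower ones were the protease gene CTSS (-0.55 ± 0.08) and the membrane protein gene LAMP2 (-0.32 ± 0.10), whose call ended without NTC DMSO replicate 1 or 2 or without FL-NPM1c replicate 1 or 2.

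Genes with 3 or fewer counts in NTC DMSO were compared as count ratios. SLAMF7, a lymphocyte and macrophage surface receptor gene, had 232 counts in FL-NPM1c and 3 in NTC DMSO, a ratio of 62.4 after scaling by library totals (95% exact interval 21.1 to 305, counting error only). FCGR3A, the gene for CD16a, had 39 counts against 1 (ratio 31.5, interval 5.32 to 1270).

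**Figure D2:**
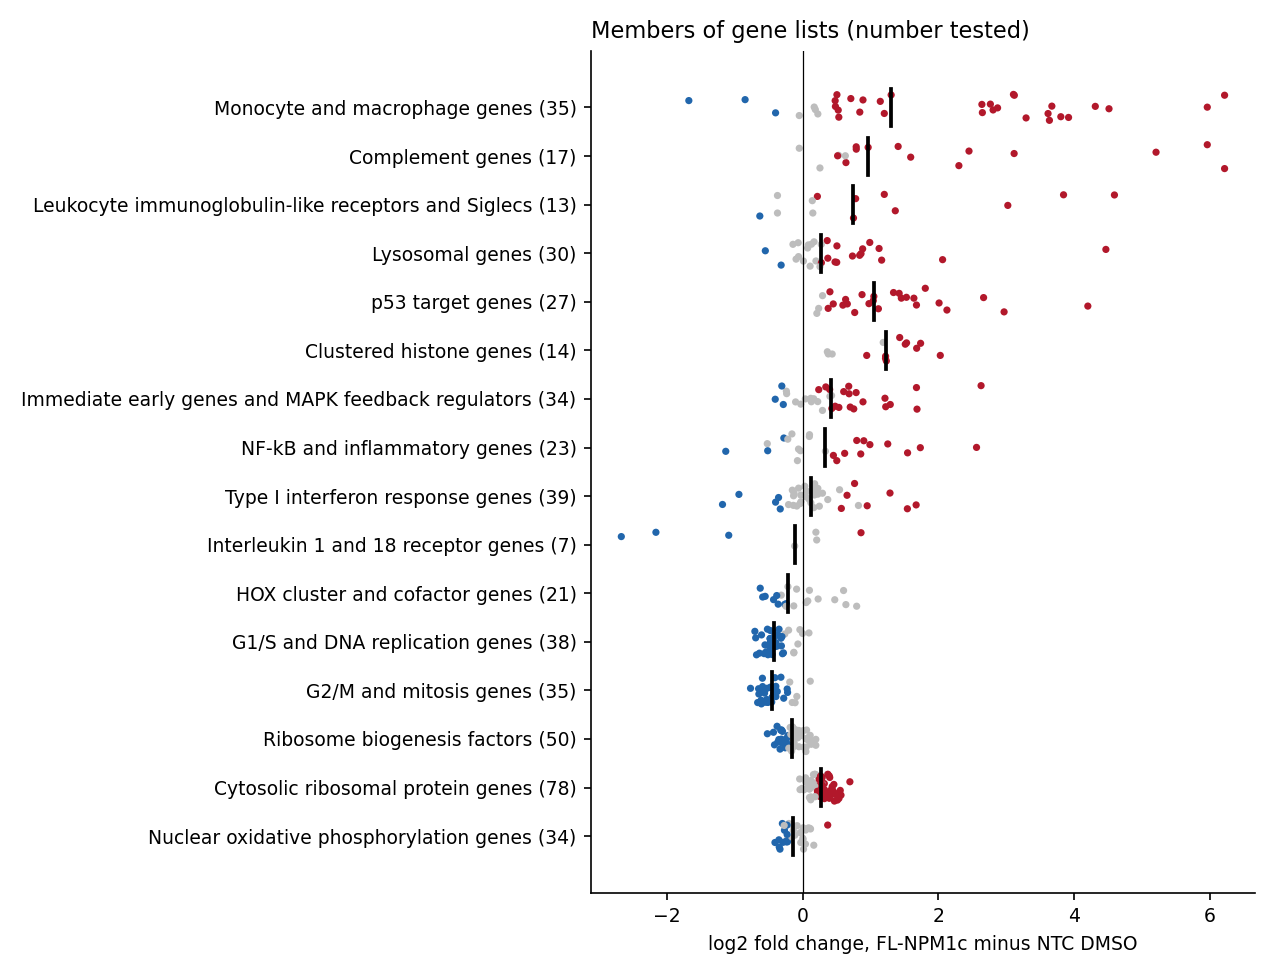
Each point is a tested member of the list named on the left, placed by its log2 fold change of FL-NPM1c minus NTC DMSO, with red higher, blue lower and grey not past an adjusted p of 0.05. Black bars are medians, 1.30 for monocyte and macrophage genes, 1.05 for p53 targets, -0.46 for G2/M genes and 0.27 for ribosomal protein genes.

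Targets of the tumour suppressor p53 remained high. Of 27 tested, 24 were higher and 0 lower, with a median of 1.05. The inhibitor of cyclin-dependent kinases CDKN1A (chromosome 6, 36676460 to 36687339) was at 32.3, 32.4 and 38.2 CPM in NTC DMSO and at 236, 217 and 200 in FL-NPM1c. The ranges did not overlap, and the difference was 2.67 ± 0.09 (adjusted p = 1.2e-11). GDF15, a secreted stress cytokine, was at 0.595, 0.375 and 0.713 CPM against 12.1, 10.1 and 8.91 (4.2 ± 0.21, adjusted p = 7.3e-10). The Akt inhibitor PHLDA3 was 2.13 ± 0.13 higher, the antiproliferative gene BTG2 1.68 ± 0.10, and MDM2, which encodes the ligase that degrades p53, 1.04 ± 0.10. The mitochondrial autophagy gene SPATA18 had 33 counts against 3 (ratio 8.87, interval 2.78 to 45.2). The members that did not pass were CCNG1, POLH and PPM1D, at 0.29, 0.24 and 0.21, of which CCNG1 passed without NTC DMSO replicate 1 (0.41, adjusted p = 0.030), and CCNG1 and PPM1D passed when scaled by library totals only (adjusted p = 0.040 and 0.043). CDKN1A was at 227 to 259 CPM in mCherry cells and FL-NPM1c minus mCherry was -0.16 ± 0.09 (adjusted p = 0.21). GDF15 was higher with FL-NPM1c than with mCherry by 0.72 ± 0.16 (adjusted p = 0.0064), as was BBC3, which encodes the pro-apoptotic protein PUMA, by 0.68 ± 0.16 (adjusted p = 0.010). With FL-NPM1c replicate 1 or 2 left out, BBC3 did not pass against mCherry (adjusted p = 0.051 and 0.050). Against C-body null cells GDF15 was 0.77 ± 0.16 higher (adjusted p = 0.0042) and BBC3 did not pass (0.44 ± 0.16, adjusted p = 0.086). BBC3 was at 1.62 to 2.14 CPM in NTC DMSO, 4.45 to 5.69 in FL-NPM1c and 2.71 to 3.92 in mCherry cells, 3 ranges that do not overlap.

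Of 15 BCL2 family genes, which set the threshold for apoptosis, 5 were higher and 1 lower (40.0% called, against 27.9% of all genes). The higher ones were BBC3 (1.45 ± 0.17), BCL2L11 (0.89 ± 0.07), BCL2A1 (0.80 ± 0.20), BAX (0.77 ± 0.12) and BIK (0.58 ± 0.15), of which BCL2A1 is protective and the others promote death. The lower one was the protective gene MCL1, at 324 to 417 CPM against 284 to 320 (-0.31 ± 0.09, adjusted p = 0.023). Without FL-NPM1c replicate 1, 3 members were higher, and the calls for BCL2A1 (0.52, adjusted p = 0.068) and BIK (0.47, adjusted p = 0.053) ended. The MCL1 call ended without NTC DMSO replicate 1 or 2 or without FL-NPM1c replicate 1 or 2. Although above NTC DMSO, BCL2A1 in FL-NPM1c (1.79 to 3.20 CPM) was below mCherry cells (5.77 to 7.58) and C-body null cells (5.36 to 6.13). The differences were -1.51 (adjusted p = 3.3e-05) and -1.23 (adjusted p = 0.00019).

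Genes of DNA replication and mitosis were lower. Of 38 tested G1/S and DNA replication genes 30 were lower and 0 higher (median -0.43), and of 35 G2/M and mitosis genes 30 were lower and 0 higher (median -0.46). Single changes were small beside those of the monocyte genes. CCNA2, the cyclin A gene, was at 190, 175 and 140 CPM in NTC DMSO and at 92.1, 101 and 104 in FL-NPM1c (-0.77 ± 0.11, adjusted p = 9.6e-05). The ranges did not overlap, although NTC DMSO replicate 3 lay nearest to the FL-NPM1c libraries. RRM2, which encodes a subunit of ribonucleotide reductase, was at 311, 307 and 267 CPM against 177, 184 and 187 (-0.69 ± 0.08). CDC6, a licensing factor of replication origins, was lower by 0.68 ± 0.07 and MCM10 by 0.64 ± 0.08. The mitotic motor gene KIF11 was lower by 0.66 ± 0.10, the mitotic kinase gene CDK1 by 0.65 ± 0.10 and the proliferation marker MKI67 by 0.65 ± 0.12. In mCherry cells CCNA2 was at 98.5 to 128 CPM and CDC6 at 61.2 to 68.4, and FL-NPM1c minus mCherry was -0.20 ± 0.11 (adjusted p = 0.21, and -0.30 with adjusted p = 0.040 without mCherry replicate 2) and 0.09 ± 0.07 (adjusted p = 0.41). Over the lists, 11 of 38 G1/S genes and 6 of 35 G2/M genes were higher in FL-NPM1c than in mCherry cells and 0 were lower. Against C-body null cells 4 of each list were higher and 0 lower, with 4.82% of all genes higher.

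The 250 bases before the start of each gene with a RefSeq promoter entry (GRCh38.p14) were searched on both strands for 4 motifs. These were chosen after the list results were known. The motifs were the cell cycle homology region (CHR, TTTGAA), E2F sites (TTTCCCGC or TTTGGCGC), the CCAAT box (CCAAT) and the core of PU.1 sites (GAGGAA). A promoter entry was found for 28 of the G2/M genes, 33 of the G1/S genes and 29 of the 38 monocyte and macrophage genes. CHR letters stood in 14 of 28 G2/M promoters (50%) against 13.6% of all 27305 promoters. E2F letters stood in 14 of 33 G1/S promoters (42.4%) against 1.96%, and PU.1 letters in 15 of 29 monocyte promoters (51.7%) against 23.4%. CCAAT stood in 75.0% of G2/M, 54.5% of G1/S, 71.4% of HOX and 56.5% of p53 target promoters against 33.0% of all, and in 27.6% of monocyte promoters. The shares of the remaining pairs of motif and list lay between 0.0% and 24.1%. Above the share of all promoters were E2F letters in p53 targets (3 of 23, 13.0%) and in G2/M genes (1 of 28, 3.57%). CHR letters in monocyte genes were also above it (7 of 29, 24.1%), and the rest lay below it. By result of the test, CHR letters stood in 12 of 24 lower G2/M genes and 2 of 4 that did not pass, and E2F letters in 10 of 26 lower G1/S genes and 4 of 7 that did not pass. PU.1 letters stood in 11 of 23 higher monocyte genes, 2 of 3 lower ones and 2 of 2 that did not pass. A match is a description of letters, not a site in use. The lists group genes by known function, so shares above that of all promoters describe the lists. They are not a test of this comparison.

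The 6 promoters below show where the letters lie in the 150 bases before the start, in capitals on either strand. For each list they are the 2 genes with the largest change among those with a match in these 150 bases, so they were picked for holding one. Members with a promoter entry, a larger change than the second gene shown and no match there were CCNA2 and CDK1 of the G2/M list, RRM2, CDC6, MCM10 and RFC5 of the G1/S list, and C1QA, FCGR3A, S100A12, S100A9 and CSF1R of the monocyte list. Members without an entry, such as CCNE2 and C1QC, are not covered.
KIF11 (chr10:92592980-92593129, plus strand, CHR): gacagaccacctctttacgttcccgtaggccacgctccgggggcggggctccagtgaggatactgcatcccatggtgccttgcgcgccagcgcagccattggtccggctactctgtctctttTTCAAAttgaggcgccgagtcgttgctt
MKI67 (chr10:128126424-128126573, minus strand, CHR): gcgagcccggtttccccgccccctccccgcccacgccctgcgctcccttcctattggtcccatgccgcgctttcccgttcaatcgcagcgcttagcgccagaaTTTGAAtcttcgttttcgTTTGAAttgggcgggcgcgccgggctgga
E2F2 (chr1:23531234-23531383, minus strand, E2F): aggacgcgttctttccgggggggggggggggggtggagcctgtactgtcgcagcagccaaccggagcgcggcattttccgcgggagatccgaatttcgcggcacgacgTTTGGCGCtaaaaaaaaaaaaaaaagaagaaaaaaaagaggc
GINS2 (chr16:85688955-85689104, minus strand, E2F): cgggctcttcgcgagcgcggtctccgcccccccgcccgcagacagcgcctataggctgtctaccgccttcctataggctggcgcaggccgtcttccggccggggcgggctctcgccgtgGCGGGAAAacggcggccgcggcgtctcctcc
FCN1 (chr9:134917913-134918062, minus strand, PU.1): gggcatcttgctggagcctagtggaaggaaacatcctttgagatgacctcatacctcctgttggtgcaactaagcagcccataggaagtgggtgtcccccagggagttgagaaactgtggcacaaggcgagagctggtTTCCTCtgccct
S100A8 (chr1:153391189-153391338, minus strand, PU.1): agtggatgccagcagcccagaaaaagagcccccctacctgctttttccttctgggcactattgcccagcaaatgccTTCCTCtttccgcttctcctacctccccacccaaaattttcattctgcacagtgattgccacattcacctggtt
Of these genes, E2F2, an activating E2F factor, was lower by 0.61 ± 0.12 and GINS2, a replicative helicase subunit gene, by 0.56 ± 0.08. FCN1, which encodes the lectin ficolin, was 3.92 ± 0.27 higher. SPI1, which encodes PU.1, was at 62.8 to 79.1 CPM in NTC DMSO and 93.7 to 109 in FL-NPM1c (0.54 ± 0.12, adjusted p = 0.0035). It was at 84.5 to 118 CPM in mCherry cells and 105 to 127 in C-body null cells. FL-NPM1c differed from them by -0.02 ± 0.12 and -0.14 ± 0.12, which did not pass (adjusted p = 0.93 and 0.50). A link between the SPI1 level and the monocyte genes was not tested.

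Clustered histone genes went the other way from the replication genes. Of 14 tested, 10 were higher and 0 lower (median 1.23). This was shared with mCherry cells, where 11 were higher and 0 lower than in NTC DMSO (median 1.05). H2BC21 was at 1.74, 1.8 and 1.45 CPM in NTC DMSO and at 7.21, 6.13 and 7.04 in FL-NPM1c (2.03 ± 0.13, adjusted p = 2e-08). In mCherry cells it was at 8.81 to 10.5 CPM, and FL-NPM1c minus mCherry was -0.53 (adjusted p = 0.0067). H4C8, H2BC5 and H3C10 were 1.74 ± 0.19, 1.68 ± 0.16 and 1.53 ± 0.20 above NTC DMSO. The libraries were prepared with a kit for polyadenylated RNA, most clustered histone transcripts end without a poly(A) tail, and reads of the histone copies can be shared, so these low values cover only part of the histone RNA.

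HOX cluster genes and their cofactors stayed nearer to the NTC DMSO level than in mCherry cells. Of 21 tested, 8 were lower and 0 higher (median -0.22), against 13.3% lower and 14.6% higher over all genes. Without NTC DMSO replicate 1, 5 were lower, and without FL-NPM1c replicate 1, 1 was higher. In mCherry cells, set against the same NTC DMSO libraries, 14 were lower and 0 higher (median -0.82), where 9.69% of all genes were lower. Tested directly, 11 were higher and 0 lower in FL-NPM1c than in mCherry cells, and 13 were higher and 0 lower than in C-body null cells. Members below the filter were not tested and had more counts in FL-NPM1c than in NTC DMSO, before scaling for depth. HOXA4 had 35 counts against 9, HOXA6 30 against 9, HOXA7 18 against 8, HOXA2 18 against 10 and HOXB1 1 against 0. HOXB9 (chromosome 17, 48621159 to 48626356) was at 5.23, 4.88 and 4.70 CPM in NTC DMSO, 5.62, 4.80 and 4.94 in FL-NPM1c, 1.24, 1.14 and 0.869 in mCherry and 0.577, 0.455 and 0.572 in C-body null cells. The NTC DMSO and FL-NPM1c ranges overlap, and the difference was 0.05 ± 0.13 (95% interval -0.22 to 0.32, adjusted p = 0.80), while FL-NPM1c was 2.22 ± 0.15 above mCherry (adjusted p = 2.3e-07). Its neighbour HOXB8 (chromosome 17, 48611377 to 48614939) lay between the groups, at 3.69 to 4.201 CPM in NTC DMSO, 2.29 to 2.94 in FL-NPM1c and 0.869 to 1.08 in mCherry cells. It was 0.62 ± 0.14 below NTC DMSO (adjusted p = 0.0037) and 1.31 ± 0.16 above mCherry (adjusted p = 7e-05).

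On chromosome 7, HOXA10 was at 113, 106 and 111 CPM in NTC DMSO, 91.2, 96.2 and 92.7 in FL-NPM1c and 60.02, 65.1 and 62.2 in mCherry cells. It was lower than NTC DMSO by 0.24 ± 0.07 (adjusted p = 0.017), a call that ended without NTC DMSO replicate 1 and without FL-NPM1c replicate 3, and higher than mCherry by 0.58 ± 0.07 (adjusted p = 5e-05). HOXA13 followed the same order, at -0.26 ± 0.09 and 0.75 ± 0.09, and its call against NTC DMSO ended without either of NTC DMSO replicates 1 and 2 or FL-NPM1c replicates 1 and 2. HOXA11 was 0.59 ± 0.08 below NTC DMSO and 0.36 ± 0.08 above mCherry (adjusted p = 0.0098, and 0.078 without FL-NPM1c replicate 1). HOXA9, a HOX gene widely measured in this leukaemia, had overlapping values in FL-NPM1c and mCherry cells. It was at 65.6, 60.9 and 55.3 CPM in NTC DMSO, 41.3, 47.7 and 46.0 in FL-NPM1c and 44.0, 39.2 and 45.6 in mCherry cells. FL-NPM1c was 0.43 ± 0.09 below NTC DMSO (adjusted p = 0.0021), and its difference from mCherry was 0.07 ± 0.09 (95% interval -0.12 to 0.26, adjusted p = 0.63). C-body null cells had less, at 27.9 to 29.9 CPM, and FL-NPM1c was 0.63 ± 0.09 above them (adjusted p = 0.00019). MEIS1, the HOX cofactor gene, was at 21.6 to 24.1 CPM, 15.3 to 16.3 and 12.2 to 13.7, which is 0.55 ± 0.09 below NTC DMSO (adjusted p = 0.00021) and 0.25 ± 0.09 from mCherry (adjusted p = 0.059, and 0.038 with DESeq2 to 0.19 without FL-NPM1c replicate 1 or 2). It was 0.93 ± 0.09 above C-body null cells (adjusted p = 3.6e-06). The annotated spans of HOXA9 (27162435 to 27175180) and HOXA10 (27170591 to 27180261) overlap on the same strand, so their counts are not fully separate.

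**Figure D3:**
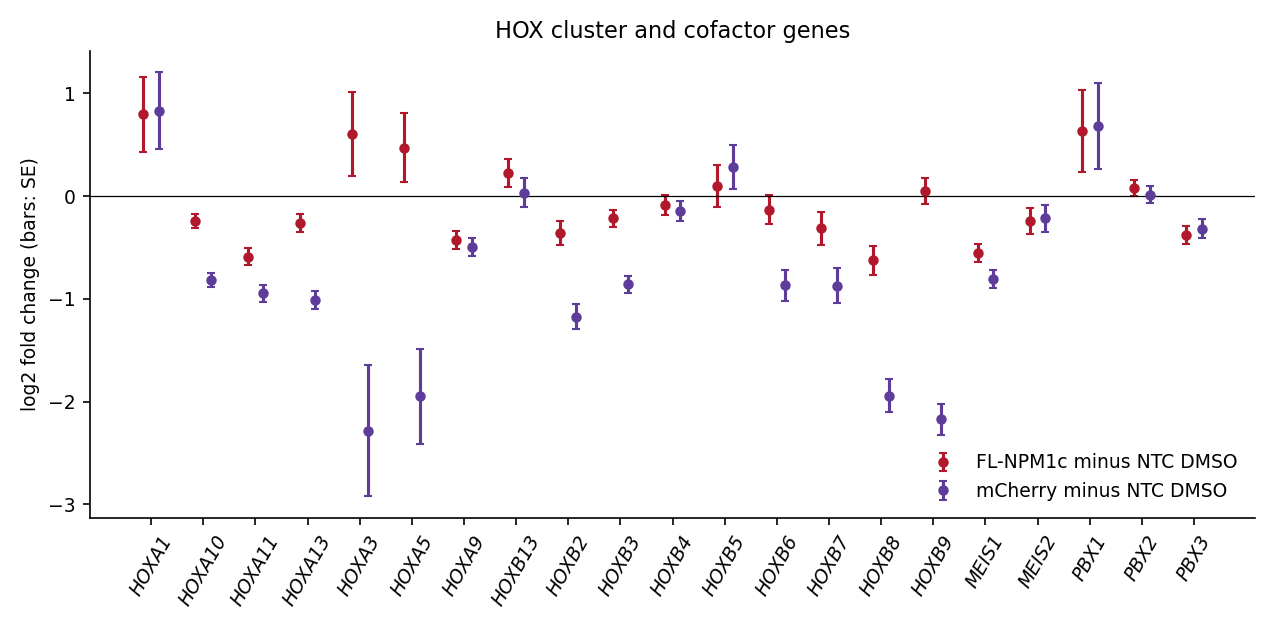
Log2 fold changes of the 21 tested HOX cluster and cofactor genes (bars, SE) for FL-NPM1c minus NTC DMSO in red and mCherry minus NTC DMSO in purple, which share the NTC DMSO libraries. HOXB9 lies at 0.05 in red and -2.17 in purple, and HOXA9 at -0.43 and -0.50.

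Of 17 tested genes outside the HOX clusters that depend on menin and the methyltransferase MLL, 3 were higher and 1 lower, 23.5% of the list against 27.9% of all genes. FLT3, a receptor tyrosine kinase gene, was at 22.4, 23.3 and 19.8 CPM in NTC DMSO and at 41.1, 42.3 and 46.3 in FL-NPM1c. The ranges did not overlap, and the difference was 0.98 ± 0.09 (adjusted p = 8.1e-07). It was also 0.39 ± 0.09 above mCherry cells (adjusted p = 0.0084), a call that ended without mCherry replicate 1 (0.35, adjusted p = 0.058). C-body null cells had FLT3 at 40.9 to 42.0 CPM, and FL-NPM1c minus C-body null was 0.06 ± 0.09 (95% interval -0.13 to 0.24, adjusted p = 0.75). RUNX2, a transcription factor gene, was 0.57 ± 0.08 above NTC DMSO and 0.49 ± 0.08 above mCherry (adjusted p = 0.00012 and 0.00095), and 0.62 ± 0.08 above C-body null cells (adjusted p = 0.00010). LMO2, a transcriptional cofactor gene, was 0.26 ± 0.08 higher, a call that ended without NTC DMSO replicate 2 or 3 or without FL-NPM1c replicate 1 or 2, and IGF2BP2, an RNA-binding protein gene, was 0.40 ± 0.07 lower. Without NTC DMSO replicate 3, 4 members of the list were lower, and 3 without FL-NPM1c replicate 3.

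**Figure D4:**
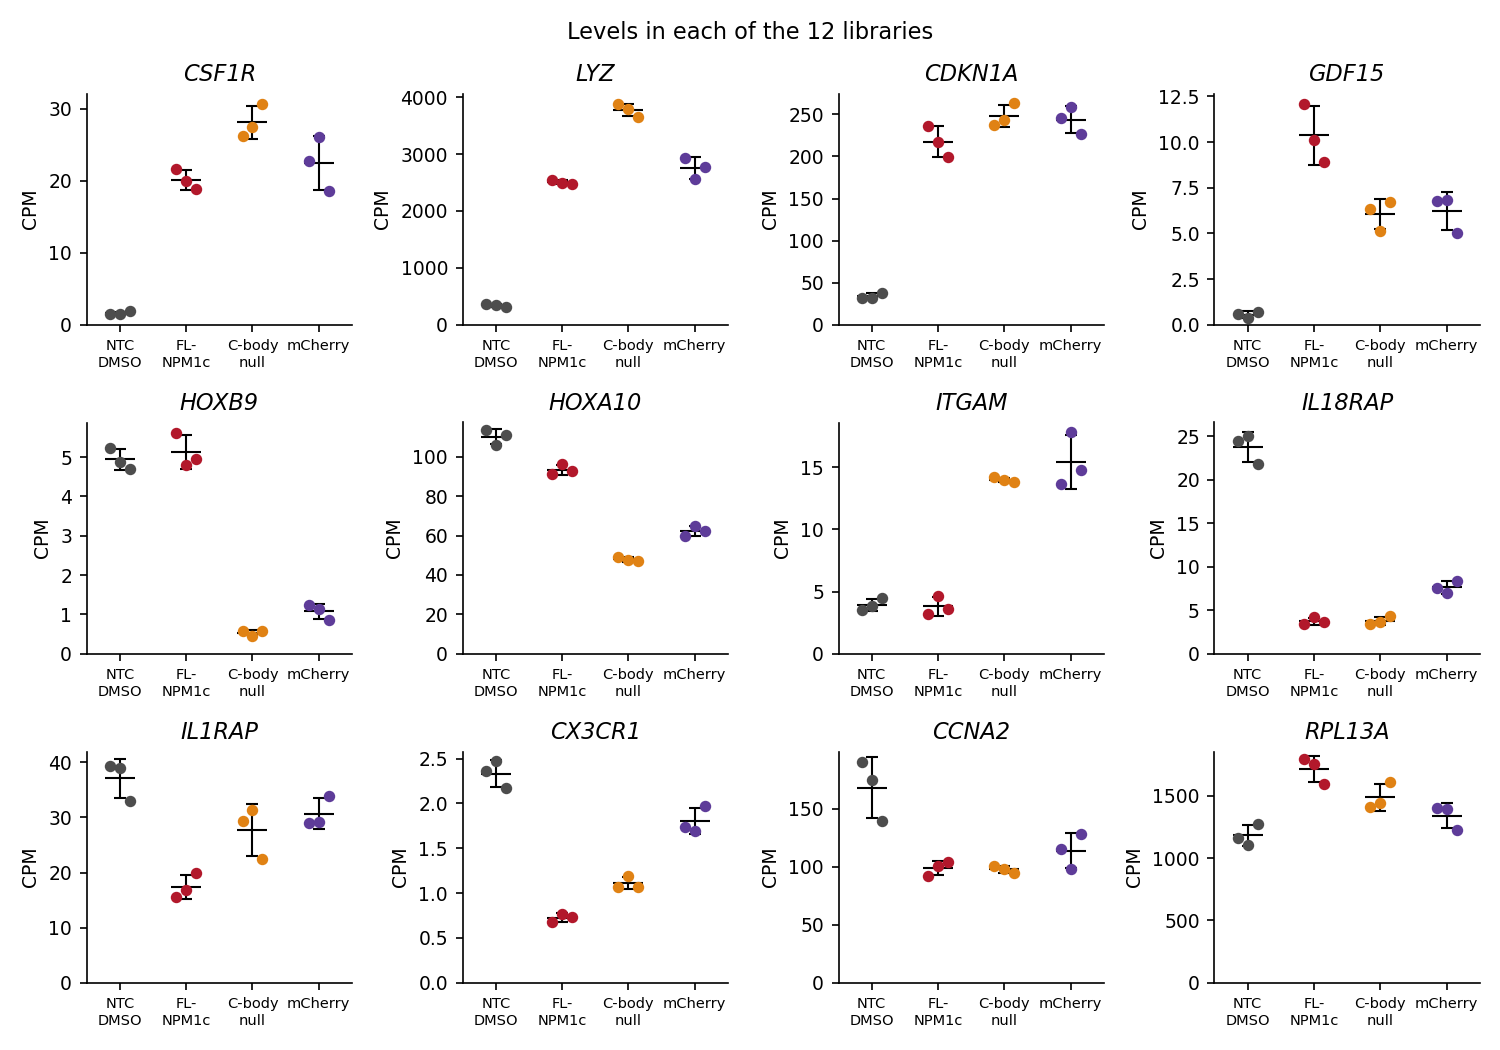
Level in CPM of 12 genes in each of the 12 libraries, grouped as NTC DMSO, FL-NPM1c, C-body null and mCherry, with the group mean and SD as bars and axes from 0. CSF1R, LYZ and CDKN1A are high in all 3 dTAG groups, HOXB9 and ITGAM in FL-NPM1c cells overlap the NTC DMSO range, and IL1RAP and CX3CR1 are lowest in FL-NPM1c cells.

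The largest decrease with a mean of at least 1 CPM was BEND4, a BEN domain gene, at 2.36, 3.15 and 2.35 CPM in NTC DMSO and 0.109, 0.233 and 0.312 in FL-NPM1c (-3.53 ± 0.29, adjusted p = 2.9e-07). It was as low in mCherry cells (0.200 to 0.429 CPM). The collagen receptor gene DDR2 went from 19.6 to 21.4 CPM to 5.90 to 6.58 (-1.75 ± 0.12), with 6.95 to 7.48 in mCherry cells.

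A second set of decreases was deeper with FL-NPM1c than with mCherry. The chains of the interleukin 18 receptor are encoded side by side on chromosome 2. IL18RAP (102418689 to 102452565) was at 24.5, 25.0 and 21.8 CPM in NTC DMSO, 3.38, 4.17 and 3.66 in FL-NPM1c and 6.95 to 8.39 in mCherry cells. It was 2.67 ± 0.12 below NTC DMSO (adjusted p = 1.9e-10) and 1.03 ± 0.12 below mCherry (adjusted p = 4.1e-05). IL18R1 (102311529 to 102398775) was 2.16 ± 0.11 and 0.88 ± 0.11 below them (adjusted p = 7e-10 and 6.8e-05). Both were also low in C-body null cells, at 3.46 to 4.34 CPM for IL18RAP and 6.43 to 6.84 for IL18R1. FL-NPM1c minus C-body null was -0.04 ± 0.13 for IL18RAP (95% interval -0.30 to 0.23, adjusted p = 0.90) and -0.02 ± 0.11 for IL18R1 (-0.26 to 0.21, adjusted p = 0.92). IL1RAP, the co-receptor of interleukin 1, was at 39.4, 39.0 and 33.0 CPM in NTC DMSO, 15.6, 16.8 and 19.9 in FL-NPM1c and 29.01 to 33.9 in mCherry cells. FL-NPM1c was below both, by 1.09 ± 0.13 and 0.81 ± 0.13 (adjusted p = 1.3e-05 and 0.00055), while mCherry cells did not pass the test against NTC DMSO (-0.28, adjusted p = 0.13). IL1RAP was also 0.67 ± 0.13 below C-body null cells (adjusted p = 0.0025). Of the 7 tested interleukin 1 and 18 receptor genes these 3 were lower, and IL1RN, which encodes the interleukin 1 receptor antagonist, was higher by 0.86 ± 0.08.

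CX3CR1 was at 2.36, 2.48 and 2.17 CPM in NTC DMSO, 0.675, 0.770 and 0.738 in FL-NPM1c and 1.69 to 1.97 in mCherry cells. It was 1.68 ± 0.16 below NTC DMSO (adjusted p = 1.2e-06) and 1.30 ± 0.16 below mCherry (adjusted p = 7.7e-05). The receptor tyrosine kinase gene ROS1 had the same order, at -1.92 ± 0.23 and -1.59 ± 0.24 (adjusted p = 2e-05 and 0.00042), as did SPIB, which encodes an Ets factor related to PU.1, at -2.12 ± 0.18 and -1.20 ± 0.19 (adjusted p = 4e-07 and 0.00074). The chemokine gene CCL2 was at 3.59 to 3.98 CPM in NTC DMSO, 1.33 to 1.98 in FL-NPM1c and 3.67 to 4.12 in mCherry cells, so that FL-NPM1c was 1.13 ± 0.15 below the first and 1.15 ± 0.15 below the last (adjusted p = 4.2e-05 and 9.8e-05). Against C-body null cells SPIB and CCL2 were lower by 1.00 ± 0.20 and 0.79 ± 0.15 (adjusted p = 0.0031 and 0.0026). CX3CR1 was lower by 0.61 ± 0.17 (adjusted p = 0.032), a call lost when any 1 FL-NPM1c or C-body null library was left out, with DESeq2, with no low-count filter and with the replicate block (adjusted p 0.051 to 0.12). ROS1 did not pass (-0.78 ± 0.26, adjusted p = 0.070), though it did without FL-NPM1c replicate 3 (adjusted p = 0.030).

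Cytosolic ribosomal protein genes were higher by small steps. Of 78 tested, 47 were higher and 0 lower (median 0.27), while 0 of 78 passed in either direction in mCherry cells against the same controls (3 at an unadjusted p under 0.05, and 2 called by DESeq2), and 42 were higher with FL-NPM1c than with mCherry. The comparison with C-body null cells had 1 of 78 higher. RPL13A was at 1166, 1109 and 1278 CPM in NTC DMSO, 1793, 1758 and 1598 in FL-NPM1c and 1229 to 1400 in mCherry cells. It was 0.54 ± 0.08 above NTC DMSO (adjusted p = 0.00017) and 0.36 ± 0.08 above mCherry (adjusted p = 0.0087, and 0.070 without FL-NPM1c replicate 1). From C-body null cells, at 1412 to 1612 CPM, it differed by 0.21 ± 0.08, which did not pass (adjusted p = 0.13). RPL28 was 0.70 ± 0.14 above NTC DMSO and RPS19 0.55 ± 0.13. The mCherry libraries were uneven for these genes, at 389, 395 and 294 CPM for RPL28 and 535, 596 and 410 for RPS19, lowest in replicate 3. The count of 47 was 25 without NTC DMSO replicate 1, 15 without NTC DMSO replicate 2, 12 without FL-NPM1c replicate 1 and 23 without FL-NPM1c replicate 2. Many ribosomal protein genes have processed pseudogenes that can share their reads.

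Factors that assemble ribosomes in the nucleolus did not follow. Of 50 tested, 0 were higher and 19 lower (median -0.16), among them UTP20 (-0.52 ± 0.10), DDX18 (-0.43 ± 0.09) and BRIX1 (-0.41 ± 0.10). Between 9 and 12 were lower without NTC DMSO replicate 1 (9), NTC DMSO replicate 2 (12) or FL-NPM1c replicate 2 (9). Of 34 nuclear genes of oxidative phosphorylation, 12 were lower and 1 higher (38.2% called, median -0.14). Complex I and II subunits led, with NDUFS1 at 161 to 181 CPM against 129 to 132 (-0.41 ± 0.07, adjusted p = 0.00069) and SDHD at 122 to 148 against 98.9 to 111 (-0.35 ± 0.08). Both were also lower than in mCherry cells (-0.32, adjusted p = 0.0090, and -0.47, adjusted p = 0.0016). Against C-body null cells NDUFS1 did not pass in edgeR (-0.21, adjusted p = 0.080, and 0.031 with DESeq2), and SDHD was lower (-0.36, adjusted p = 0.0099), a call lost without FL-NPM1c or C-body null replicate 1. The count of 12 fell to 3 or 4 without NTC DMSO replicate 1 (3), NTC DMSO replicate 2 (4), FL-NPM1c replicate 2 (3) or FL-NPM1c replicate 3 (3). The higher member was NDUFA2 (0.37 ± 0.10), a call lost without NTC DMSO replicate 1 or 2 or without FL-NPM1c replicate 1 or 2. None of the 13 mitochondrially encoded transcripts passed the test in edgeR or DESeq2, and 0 had an unadjusted p under 0.05 in edgeR (median -0.02).

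Signalling genes were mixed. Of 34 immediate early genes and feedback regulators of MAP kinases, 19 were higher and 3 lower (64.7% called, against 27.9% of all genes). ZFP36L1, which encodes an mRNA decay factor, was at 2.20 to 2.63 CPM against 13.1 to 17.97 (2.63 ± 0.15) and JUN at 3.85 to 4.17 against 11.6 to 14.1 (1.69 ± 0.11), while DUSP5, MCL1 and ETV5 were lower by 0.40 ± 0.12, 0.31 ± 0.09 and 0.28 ± 0.07. The DUSP5 call ended without FL-NPM1c replicate 3 and the ETV5 call without FL-NPM1c replicate 2. Of 23 NF-kB and inflammatory genes, 11 were higher and 3 lower (60.9% called). The chemokine gene CXCL10 was low throughout, at 0.0264 to 0.149 CPM against 0.373 to 0.722 (2.56 ± 0.49, adjusted p = 0.0012). CXCL3 (1.73 ± 0.23) and PTGS2, which encodes the inducible cyclooxygenase (1.55 ± 0.14), were higher, and CCL2, CCL5 (-0.52 ± 0.08) and SOD2 (-0.28 ± 0.09) lower, the last a call that ended without NTC DMSO replicate 1 or 2 or FL-NPM1c replicate 1 or 2. Of 39 type I interferon response genes, 7 were higher and 5 lower, shares of the list near those of all genes. TRIM22 (1.67 ± 0.10) and LGALS3BP (1.54 ± 0.18) were higher. The lower ones were USP18 (-1.18 ± 0.13), IFI27, SAMD9L, DDX60 and CMPK2, of which 1 to 3 passed with any library other than NTC DMSO replicate 3 left out. Of 15 class I antigen presentation genes, 8 were higher and 0 lower (median 0.23), including HLA-B (1.01 ± 0.08) and the immunoproteasome subunit PSMB9 (0.78 ± 0.11). PSMB9 was at 12.8 to 16.1 CPM in NTC DMSO, 23.6 to 25.4 in FL-NPM1c and 11.0 to 15.03 in mCherry cells, from which FL-NPM1c differed by 0.90 ± 0.11 (adjusted p = 8.3e-05). It was 0.72 ± 0.11 above C-body null cells (adjusted p = 0.00047).

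Some markers of other cell types were higher too. Of 10 epithelial and fibroblast markers 2 passed the filter and both were higher. FN1, the fibronectin gene, which macrophages also express, was at 59.2, 62.4 and 66.4 CPM in NTC DMSO, 718, 628 and 710 in FL-NPM1c and 449 to 559 in mCherry cells (3.45 ± 0.10 above NTC DMSO, adjusted p = 1.7e-12). COL1A2, a fibrillar collagen gene, was at 0.425 to 0.719 CPM in NTC DMSO, 1.00 to 1.55 in FL-NPM1c and 0.0276 to 0.107 in mCherry cells. It was thus 1.34 ± 0.27 above NTC DMSO and 4.06 ± 0.39 above mCherry (adjusted p = 0.0019 and 5.7e-06), and 2.73 ± 0.32 above C-body null cells (adjusted p = 3.2e-05). The summed level of the list was 59.99 to 67.1 CPM in NTC DMSO and 629 to 719 in FL-NPM1c, nearly all of it FN1, and 5 of its 10 markers had 0 counts in these 6 libraries. Of 12 erythroid and megakaryocyte markers, the platelet chemokine gene PPBP was higher, at 0.00, 0.225 and 0.106 CPM against 2.55, 2.47 and 1.94 (4.35 ± 0.41, adjusted p = 1.4e-06), with HBB, AHSP and PF4 at 0 counts in these 6 libraries. Of 9 B and plasma cell markers, the syndecan gene SDC1 was higher, at 2.75 to 3.17 CPM against 5.60 to 6.24 (0.98 ± 0.13), and it was 1.65 ± 0.14 above mCherry cells. Of 9 mast cell, basophil and eosinophil markers, MS4A2 was higher (1.15 ± 0.36, adjusted p = 0.025), a call lost without NTC DMSO replicate 2 or 3 or FL-NPM1c replicate 1 or 2. Of 11 T and NK cell markers 3 were tested and 0 passed in edgeR or DESeq2 (1 at an unadjusted p under 0.05), and of 11 stem and progenitor markers 3 were tested and 1 was lower. The share of other cell types in these values was not tested.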

How the data were processed

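RNA was measured by stranded mRNA sequencing of 12 libraries in 4 groups, and 2 of the groups are compared here. The authors deposited whole-number gene counts for 78930 readable genes (6 broken lines of 2 genes were left out). Per the submitters' processing notes, STAR, featureCounts, DESeq2 and hg38 were used. Their versions, the strand setting and the treatment of multimapping reads are not stated in these sources, so overlapping genes and gene copies are uncertain. Symbols came from a gene name table (42177) and GENCODE 29 (15568), which also gave coordinates, and 21185 IDs had none. Columns were matched to samples by library number, an inference from the labels.

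Counts were tested with edgeR 4.0.16 in R 4.3.3, with filterByExpr by group (24064 genes kept, 0.0795% of counts removed), TMM factors (0.975 to 1.02) and 1 robust quasi-likelihood fit of all 12 libraries. P-values were adjusted over all genes by the Benjamini-Hochberg method, with adjusted p under 0.05 called. CPM are counts scaled by effective library total, and depth was 30.5 M to 59.9 M counts. SE was obtained as |log2 fold change| / sqrt(F). In data simulated for FL-NPM1c against NTC DMSO on 23679 genes, the fit recovered 35 of 65 genes altered 1.5-fold, 52 of 66 altered 2-fold and 63 of 66 altered 4-fold, and 17 of 167 calls (10.2%) were false, above the nominal rate. Only these genes were altered, a far smaller share than the 27.9% called in the real data. The recovery and the false share may therefore differ in the real data.

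The groups compared, the 40 gene lists (970 entries) and the naming rule were chosen with earlier results of these data known. Lists are described by counts and medians, without set tests. Named genes are NPM1, the 12 largest changes in each direction (called, mean of at least 1 CPM in the higher group, no overlap, no pseudogenes or structural RNA), the 6 largest in each direction also called against mCherry, and up to 4 called members of each list plus looked-for genes. Others were named after their values were seen, among them ITGAM, FCGR1A, FCGR2A, CCL2, CSF3R, CXCR2, LILRA2, HOXA13, MDM2, CD163, LYZ, S100A8, FCN1, E2F2, GINS2 and the small sets of lower or unchanged list members. Not every gene this rule picks is described, and some are not reported here. Other settings tried were each library dropped in turn, a replicate block, a fit of the 6 libraries alone, DESeq2 1.42.0, scaling by RLE or by totals without factors, filters of 1 count in any library or 50 counts in 3, a stricter adjusted p of 0.01, and a minimum change of 2-fold. Python 3.11.15 was used for tables, promoter searches and figures.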

Additional observations from a re-analysis of the deposited data

How the results depend on the processing

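The number of genes that differed between FL-NPM1c and NTC DMSO was 5602 to 7807 under the other normalizations, filters, DESeq2, the 6 libraries alone, the replicate block and without NTC DMSO replicate 3 or FL-NPM1c replicate 3, within 1.5 times of 6712. Leaving out 1 library gave 4190 to 7807 genes in all, 2229 to 3932 higher and 1792 to 3875 lower. An adjusted p under 0.01 left 3647 genes (2049 higher, 1598 lower), and a minimum change of 2-fold left 1282 (1133 higher, 149 lower). The share of higher genes among those called was 47.0% with DESeq2 and 57.5% with library totals only, against 52.2%, and no scaling moved the median of all genes by more than 0.03. Replicate numbers did not pair the libraries (same-number correlations of -0.04, 0.07 and -0.04), and the replicate block gave 5602 genes (3026 higher, 2576 lower). HOXB9 against NTC DMSO, which did not pass in any setting, ranged from -0.049 to 0.094 without 1 library and ITGAM from -0.21 to 0.047. The median of the interleukin 1 and 18 receptor genes turned to 0.019 with no low-count filter and lay between -0.05 and 0.09 without 1 library, and that of the MYC network list between -0.13 and 0.011. Without 1 library, FL-NPM1c minus C-body null, which did not pass for these genes, ranged from -0.106 to 0.502 for C1QA, -0.259 to 0.401 for C1QC, -0.035 to 0.041 for CCNA2 and -0.116 to 0.037 for IL18RAP. Most calls that ended without 1 library are given beside the genes, and those of the lower interferon genes as a count. The smallest changes, under 0.4 on the log2 scale, are at the limit of 3 libraries a group, where the simulated recovery at 1.5-fold was 35 of 65.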

Other observations

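Metabolic and stress lists are given here with the share of members called, where 27.9% of all genes were called. Of 29 tested amino acid response genes, 7 were higher and 6 lower in FL-NPM1c than in NTC DMSO cells (44.8%), with DDIT4, an inhibitor of the growth kinase mTOR complex, higher by 2.02 ± 0.10 (log2, SE) and the glycine transporter gene SLC6A9 by 1.27 ± 0.20. SLC6A9 was at 0.694 to 0.775 CPM in NTC DMSO, 1.59 to 2.00 in FL-NPM1c and 0.501 to 0.746 in mCherry cells, from which FL-NPM1c differed by 1.43 ± 0.20 (edgeR adjusted p = 0.00020). The lower count was 3 without NTC DMSO replicate 1 or FL-NPM1c replicate 1. Of 29 cholesterol genes, 4 were higher and 3 lower (24.1%, under the share of all genes, with 0 to 5 lower when 1 library was left out), and the synthesis enzyme gene TM7SF2 (1.49 ± 0.14) and the efflux transporter gene ABCG1 (1.90 ± 0.42) led. TM7SF2 was also 0.87 above mCherry cells (adjusted p = 0.00060) and 0.65 above C-body null cells (adjusted p = 0.0052). Of 20 heat shock and chaperone genes, 9 were lower and 0 higher (45.0%, median -0.17), among them HSPA8 (-0.41 ± 0.07) and HSPE1 (-0.43 ± 0.11), and 4 were lower without NTC DMSO replicate 1, NTC DMSO replicate 2 or FL-NPM1c replicate 2. Of 21 endoplasmic reticulum stress genes 2 were higher and 4 lower (28.6%, near the share of all genes), falling to 1 higher without FL-NPM1c replicate 1 and to 0 lower without NTC DMSO replicate 1. Of 28 glycolysis and hypoxia genes 6 were higher and 3 lower (32.1%), with the vasodilator gene ADM at 1.14 ± 0.24 and LDHA, lactate dehydrogenase A, at -0.49 ± 0.08. The higher count was 2 without NTC DMSO replicate 2 and 3 without FL-NPM1c replicate 1. Of 28 MYC network genes 2 were higher and 8 lower (35.7%). MYC itself was at 191, 182 and 207 CPM in NTC DMSO, 242, 242 and 229 in FL-NPM1c and 178 to 185 in mCherry cells. It was 0.30 ± 0.07 above NTC DMSO (adjusted p = 0.0053), a call that ended without NTC DMSO replicate 2 (0.23, adjusted p = 0.072), and 0.38 ± 0.07 above mCherry (adjusted p = 0.0022). Its difference from C-body null cells did not pass (0.15 ± 0.07, adjusted p = 0.21). Other members were the MYC antagonist MXD4 at 1.21 ± 0.14 and the transferrin receptor gene TFRC at -0.56 ± 0.10.

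In the lists below, shares in brackets are members called, where 27.9% of all genes were called, 14.6% higher and 13.3% lower. Of 39 genes of the MLL complexes, elongation factors and the nuclear export machinery around CRM1, 13 were lower and 0 higher (33.3%, near the share of all genes, median -0.16). PSIP1, which tethers MLL to chromatin, was at 124 to 165 CPM in NTC DMSO and 89.1 to 103 in FL-NPM1c (-0.59 ± 0.10, adjusted p = 0.00048). The polycomb gene SUZ12 was lower by 0.54 ± 0.10 and the elongation factor gene AFF1 by 0.51 ± 0.09. The count was 7 without NTC DMSO replicate 1 and 8 without NTC DMSO replicate 2 or FL-NPM1c replicate 2. Of 19 myeloid transcription factor genes 9 were higher and 2 lower (57.9%), with CEBPA at 151 to 158 CPM against 217 to 249 (0.61 ± 0.09, adjusted p = 0.00013). The lower ones were GATA2 (-0.37 ± 0.13) and GFI1 (-0.24 ± 0.07). The GATA2 call ended without any 1 of NTC DMSO replicates 1 and 3 and the FL-NPM1c libraries, and the GFI1 call without NTC DMSO replicate 1 or 2 or FL-NPM1c replicate 2 or 3. Of 12 primary granule genes 5 were higher and 0 lower (41.7%), with the protease gene PRTN3 at 0.76 ± 0.13. MPO, myeloperoxidase, was low in both groups (0.23 ± 0.20, adjusted p = 0.41). Of 14 integrin and selectin ligand genes 3 were higher and 3 lower (42.9%). ITGB7 was higher by 2.16 ± 0.20, ITGB2 by 0.76 ± 0.12 and ICAM1 by 0.62 ± 0.15, and SELPLG, ITGA4 and ITGAE were lower by 0.55 ± 0.11, 0.35 ± 0.10 and 0.32 ± 0.09. Without NTC DMSO replicate 1 only 1 was lower. The ITGA4 call ended without NTC DMSO replicate 1 or 2 or FL-NPM1c replicate 1 or 2, and the ITGAE call without NTC DMSO replicate 1 or FL-NPM1c replicate 3. Of 15 class II antigen presentation genes only 6 were tested, and 4 were higher and 1, CTSS, lower (83.3% called, against 27.9% of all genes). The higher ones included HLA-DOB, IFI30 and HLA-DMA, the last a call lost without NTC DMSO replicate 1 (adjusted p = 0.077). Below the filter were, among others, HLA-DRA (3 counts in NTC DMSO and 23 in FL-NPM1c), HLA-DRB1 (0 and 6), HLA-DPA1 (1 and 2) and HLA-DQA1 (0 and 0). Of 18 small nucleolar RNA host genes 2 were higher and 1 lower (16.7%, under the share of all genes). Of 7 tested dendritic cell markers 3 were higher and 2 lower (71.4%), with the lectin gene CLEC10A at 2.68 ± 0.37 and the lipid-presenting gene CD1A at -1.38 ± 0.16. The long noncoding RNA gene AL354813.1 had 230 counts in FL-NPM1c and 2 in NTC DMSO, a ratio of 92.7 (95% exact interval 25.4 to 770).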
